A study of Mus musculus with 6 samples.

Results

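The MyoD family of myogenic regulatory factors consists of Myod1, Myog, Myf5 and Myf6, and all 4 were measured in mouse soleus muscle after 1 day of reloading. The members were the probes whose gene symbol in the platform annotation is 1 of these 4 names. Each gene had 1 probe, which gave 4 of the 223 probes on the array and 4 of its 203 named genes. The samples were 6 soleus muscle samples of C57Bl/6 mice, titled wild type and numbered as replicates 1 to 6, each on an array of its own. The soleus is a postural hindlimb muscle rich in slow fibres. Age was not given in the labels, and no unloaded or untouched muscle was analysed here, so no value below is a response to reloading. Nothing in the labels says whether the 6 samples are 6 animals. Every SD therefore measures the spread between these samples, which may be technical. Every p-value shows how extreme a correlation is among re-pairings of these same samples.

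The 4 factors are basic helix-loop-helix proteins that pair with E-proteins and bind short DNA motifs called E-boxes in muscle genes. Myf5 and Myod1 commit cells to the muscle lineage and mark activated satellite cells, the stem cells of muscle. Myog drives terminal differentiation and is also kept low by nerve activity in adult fibres, and Myf6 (also called MRF4) is the member best known from mature fibres. MADS-box proteins of the MEF2 group are their partners at many muscle genes.

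In the GRCm38.p6 annotation, Myod1 lies on chromosome 7 (46376474 to 46379092) and Myog on chromosome 1 (134290004 to 134292548). Myf5 (107482908 to 107486927) and Myf6 (107492848 to 107494723) are neighbours on chromosome 10, with 5920 bases between them. The RefSeq promoter table of that build held 2 of the 4 members, Myog and Myf5. The Myf5 start in that table lies inside the span given above for the gene, so its window is not shown. The 250 bases before the Myog start are shown because Myog is a textbook target of the other factors, which bind E-boxes near its start. Capitals mark E-boxes (CANNTG, which reads the same on both strands).
Myog, chr1:134289754-134290003, plus strand: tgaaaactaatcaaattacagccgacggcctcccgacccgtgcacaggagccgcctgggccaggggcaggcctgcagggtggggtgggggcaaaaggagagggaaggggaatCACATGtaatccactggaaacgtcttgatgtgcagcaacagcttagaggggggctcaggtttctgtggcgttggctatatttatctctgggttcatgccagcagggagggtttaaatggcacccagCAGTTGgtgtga

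The Myog window held 2 E-boxes, CACATG beginning 138 bases before the start and CAGTTG beginning 12 bases before it. At least 1 E-box was present in 66.2% of the 32851 promoter windows of this length, and at least 2 in 31.8%.

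The deposited values were intensities on a linear scale, some of them below 0, with array totals that differed widely. The summed intensity was highest on replicate 1 (165.3) and lowest on replicate 6 (13.8), and the others lay between 35.2 and 41.3. Levels are therefore given as multiples of the array median (over the 175 probes above 0 on all arrays) or as log2 of that multiple. The size of the most negative value on an array was used as its noise bound. Probes above 0 on all 6 arrays made up 78.5% of the 223 probes, and probes above the noise bound on all 6 made up 58.3%. A probe's level depends on its own hybridisation, so a difference in level between members is not a difference in transcript abundance. Of 8 muscle fibre markers, 6 were measured, and all 6, the slow myosin Myh7 among them, exceeded the noise bound on every array. Of 8 satellite cell markers only Vcam1 and Cd34 were measured, and of 7 myeloid markers only Il1b, which was at or below 0 on all arrays. None of 4 nerve and Schwann cell markers was measured.

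Myod1, Myog and Myf6 were measured above noise on all 6 arrays, and Myf5 was not. Myod1 varied most between samples, Myog least, and Myf6 lay between them, an order that was the same without scaling and when arrays were scaled to 28S ribosomal RNA. The size of the ranges depended on the scaling: after scaling to 28S they were 24.3-fold for Myod1, 12.7-fold for Myf6 and 6.09-fold for Myog, and in deposited units 51.7-fold, 26.9-fold and 11.6-fold, each highest on replicate 1. The ranges that follow are after median centring. In whole muscle RNA, fewer cells that express a factor and less of its RNA per cell cannot be told apart.

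Myf5, the early commitment factor, had deposited intensities with a lowest value of -0.0001 (replicate 6), a median of 0.00055 and a highest value of 0.0146 (replicate 1). It was above 0 on 5 of 6 arrays and above the noise bound on 1 of 6. On that array, replicate 1, it stood at 1.01 times the bound of 0.0144. On replicate 3 it reached 0.962 times the bound, and on the other arrays 0.286 times or less. Myf5 was thus at or near the noise level throughout, and no fold between samples is given for it. Where it lay under the bound, the bound itself amounted to between 0.0234 and 0.0591 of the Myf6 intensity of the same array, which is the most that the Myf5 probe could have read without rising above noise.

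Myod1, the determination factor of satellite cells, had 0.424 times the array median on its lowest array, a median of 1.02 times, and 4.74 times on its highest. Replicates 2 and 1 were high, at 4.74 and 3.35 times the array median, replicate 5 followed at 1.20 times, and replicates 3, 4 and 6 were at 0.844, 0.589 and 0.424 times. Its normalized log2 intensity was 0.33 ± 1.39 (SD, n = 6), an 11.2-fold range. Of the 161 other genes above 0 on all arrays, 153 had a smaller SD, and the median SD over all 162 genes was 0.64. Without replicates 1 and 6, the arrays of highest and lowest summed intensity, the range was 8.05-fold, from replicate 2 to replicate 4. Those arrays were left out after seeing the data, and replicate 2, the highest for Myod1, was kept. Without replicate 2 alone the range was 7.91-fold, from replicate 1 to replicate 6. Even the lowest Myod1 value stood at 3.82 times the noise bound.

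Myog, the differentiation factor, had 0.568 times the array median on its lowest array, a median of 1.17 times, and 1.48 times on its highest. Replicates 1 to 4 lay within 1.12 to 1.48 times the array median, and replicates 5 and 6 were lower, at 0.568 and 0.687 times. Its normalized log2 intensity was 0.014 ± 0.56 (SD, n = 6), a 2.61-fold range, and 65 of the 161 other genes had a smaller SD. On every array it was at least 3.43 times the noise bound.

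Myf6, the factor of mature fibres, had 1.88 times the array median on its lowest array, a median of 4.80 times, and 7.75 times on its highest. Replicates 1, 3 and 2 were high, at 7.75, 7.15 and 5.97 times, and replicates 4, 5 and 6 were at 3.63, 2.82 and 1.88 times. Its normalized log2 intensity was 2.11 ± 0.82 (SD, n = 6), a 4.12-fold range, and 105 of the 161 other genes had a smaller SD. Its probe was the farthest from noise in the family, at 16.9 to 42.7 times the bound. The Myf6 pattern followed the main axis of difference between the arrays. The first principal component of the 175 probes held 67.1% of the variance. Pearson's r with its scores over the 6 arrays was 0.95 for Myf6, 0.88 for Myf5 (as multiples of the array median), 0.69 for Myog and 0.68 for Myod1. This is a description only, since the probes of Myf6, Myog and Myod1 are among the 175. The Myf5 probe is not among them. Replicates 1 and 6 lay at the ends of that component, and without them the Myf6 range was 2.53-fold.

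**Figure D1:**
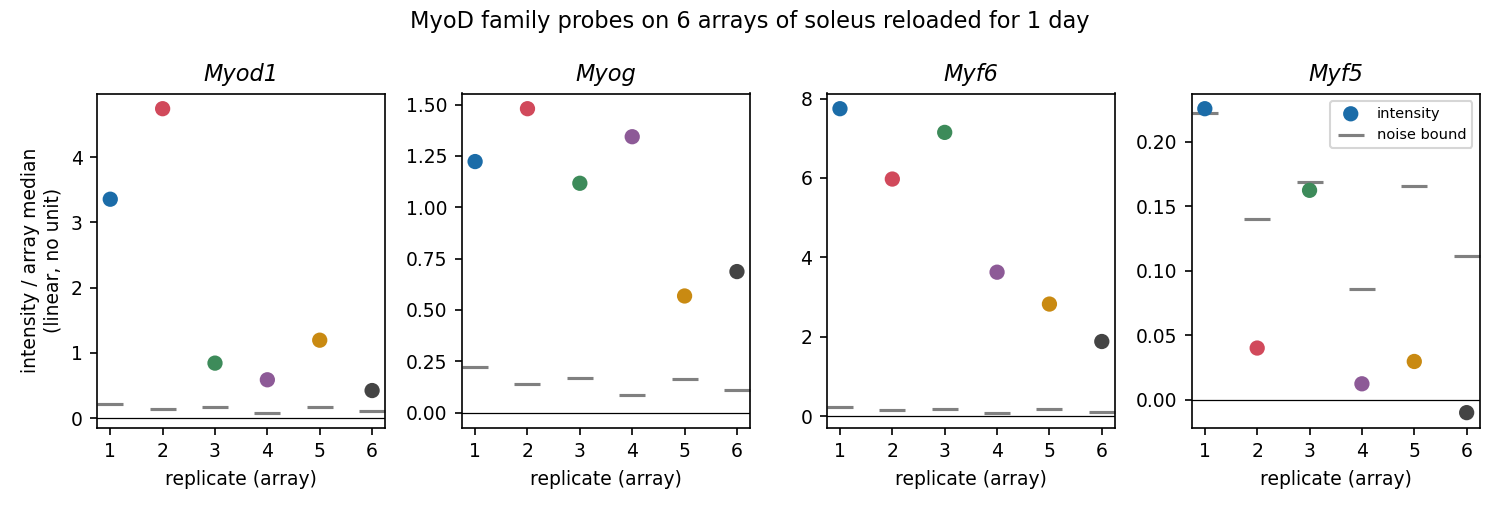
Intensity of the 4 probes as a multiple of the array median (linear vertical axis, a scale of its own in each panel) on replicates 1 to 6 (horizontal axis). Points are arrays and grey dashes the noise bound of each array; Myod1, Myog and Myf6 lie above the dashes on all 6 arrays, and Myf5 above it only on replicate 1, at 1.01 times the bound.

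Ratios between members within an array cancel the scale of that array, so they show which factors changed their proportions from sample to sample. The proportion of Myod1 to both other factors had a wider spread than that of Myog to Myf6, as a description with no test of the difference. Each ratio is between intensities of different probes, and only its change between arrays is read.

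The Myod1 to Myog ratio was above 1 on 3 arrays, at 2.74 on replicate 1, 3.20 on replicate 2 and 2.10 on replicate 5. It was below 1 on the other 3, at 0.756 on replicate 3, 0.438 on replicate 4 and 0.618 on replicate 6. When both probes were allowed an error as large as the bound, the lowest that the first 3 could be was 1.40 (replicate 5), and the highest that the others could be was 1.07 (replicate 3), so the ranges of these arrays did not overlap. The log2 ratio was 0.32 ± 1.23 (SD, n = 6), a 7.31-fold range, of which 5.29-fold was left after the noise allowance. These arrays were divided by the ratio itself and belong to no labelled groups, so no test was made between them.

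The Myod1 to Myf6 ratio divided the arrays in the same places. It was 0.433, 0.794 and 0.423 on replicates 1, 2 and 5, and 0.118, 0.162 and 0.226 on replicates 3, 4 and 6. The log2 ratio was -1.77 ± 1.02 (SD, n = 6), a 6.72-fold range, of which 5.19-fold was left after the noise allowance. Without replicate 2 the range was 3.67-fold. Both ratios contain the same Myod1 probe, so they are not independent of each other.

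The Myog to Myf6 ratio varied less, from 0.156 on replicate 3 to 0.371 on replicate 4, with 0.158, 0.248, 0.201 and 0.366 on replicates 1, 2, 5 and 6. The log2 ratio was -2.09 ± 0.56 (SD, n = 6), a 2.37-fold range, of which 1.84-fold was left after the noise allowance. Over all 7503 pairs of the 123 genes above the noise bound on all arrays, the median SD of such log2 ratios was 0.73. The SD was smaller than that of Myod1 over Myog in 81.4% of the pairs, smaller than that of Myod1 over Myf6 in 71.1%, and smaller than that of Myog over Myf6 in 31.4%.

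**Figure D2:**
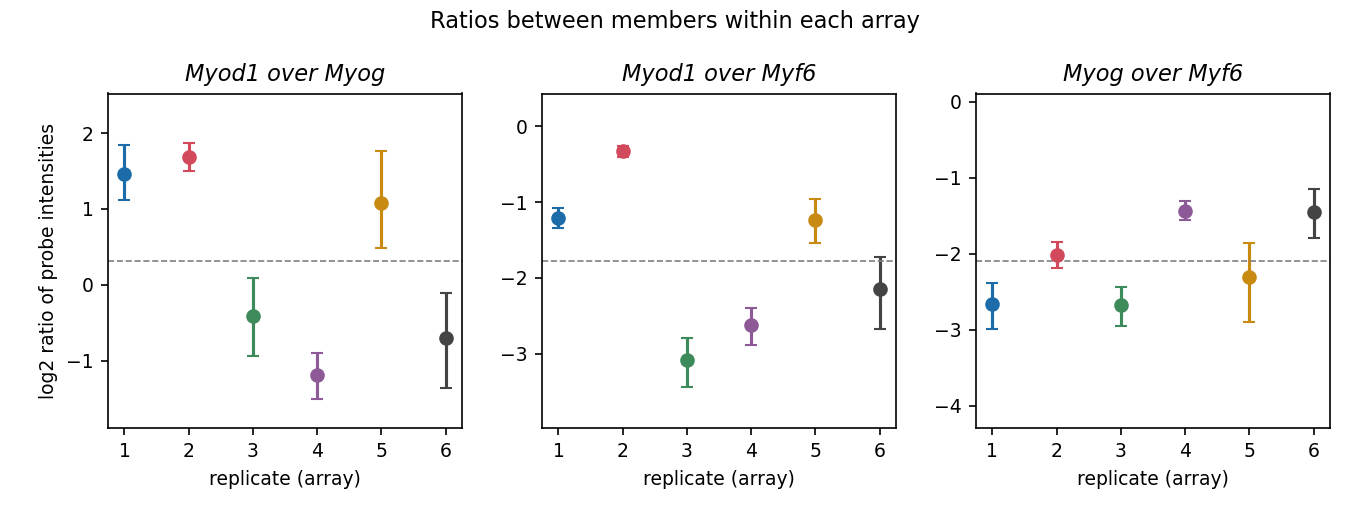
Log2 ratios of probe intensities within each array (vertical axis) for 3 pairs of members on replicates 1 to 6 (horizontal axis). Bars show the range if both probes carry an error as large as the bound, and dashed lines show the mean of 6 arrays; Myod1 over Myog lies above 0 on replicates 1, 2 and 5 and below it on replicates 3, 4 and 6.

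Over the 6 samples, the levels of Myod1, Myog and Myf6 had positive correlations in all 3 pairs, and none passed the test. All 6 pairs of members were tested with exact two-sided permutation tests and Benjamini-Hochberg adjustment over the 6 pairs. Pearson's r was 0.68 for Myod1 and Myf6 (exact p = 0.144, 0.294 once adjusted), with Spearman's rho of 0.60 (exact p = 0.242, 0.483 once adjusted). Leaving out replicates 1 and 2, where Myod1 was farthest from its median, gave r = 0.43. For Myog and Myf6, r was 0.73 (exact p = 0.147, 0.294 once adjusted) and rho 0.49 (exact p = 0.356, 0.503 once adjusted). The positive r came from replicates 5 and 6, where both genes were low, and was -0.49 without them. For Myod1 and Myog, r was 0.47 (exact p = 0.375, 0.562 once adjusted) and rho 0.43 (exact p = 0.419, 0.503 once adjusted), and r was -0.26 without replicates 1 and 2. A p-value that misses the threshold with 6 samples does not show that the factors were unrelated.

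Myf5 and Myf6 had the highest r and rho in the family, on values of which 5 of 6 for Myf5 were under the noise bound. For pairs with Myf5, r was on a linear scale, and for the other pairs on log2. Those r values are therefore not directly comparable. On the linear scale of multiples of the array median, r was 0.89 (exact p = 0.00556, 0.033 once adjusted) and rho 0.94 (exact p = 0.0167, 0.10 once adjusted), so Pearson's r passed the threshold and Spearman's rho did not. Leaving out replicates 1 and 3, where Myf5 was farthest from its median, gave r = 0.79. With the noise bound added before log2, all pairs were on 1 scale. There r was 0.79 for Myf5 and Myf6 (adjusted exact permutation p = 0.317) and 0.75 for Myog and Myf6. The other pairs with Myf5 did not pass: r was 0.32 with Myod1 (exact p = 0.472, 0.567 once adjusted) and 0.29 with Myog (exact p = 0.633, 0.633 once adjusted). With Myod1, r was 0.00021 without replicate 1 and 0.79 without replicate 2, and with Myog it was 0.084 without replicate 6 and 0.49 without replicate 2. The rho values were 0.71 with Myod1 (exact p = 0.136, 0.408 once adjusted) and 0.26 with Myog (exact p = 0.658, 0.658 once adjusted). Without the arrays farthest from the median, r was 0.35 for Myod1 and Myf5 (without replicates 1 and 2) and -0.75 for Myog and Myf5 (without replicates 5 and 6).

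**Figure D3:**
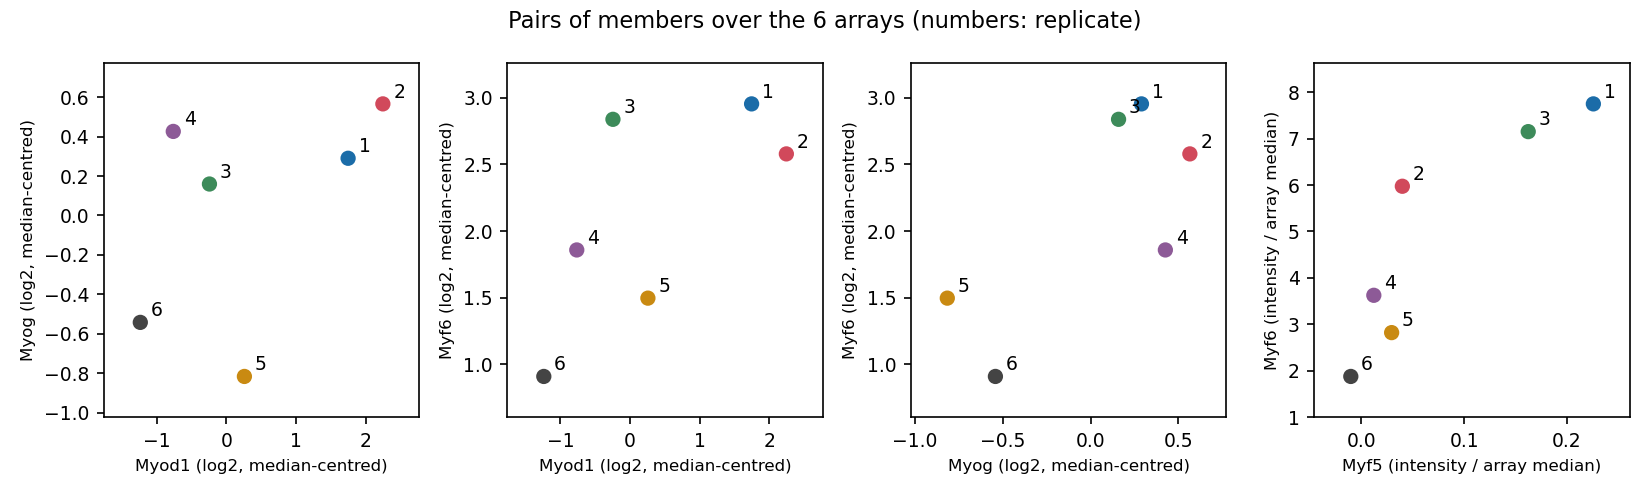
Levels of 4 pairs of members over the 6 arrays, with the replicate number beside each point; axes are log2 multiples of the array median in the first 3 panels and linear multiples in the last. Myog and Myf6 are both low on replicates 5 and 6, and Myf5 and Myf6 are highest on replicates 1 and 3.

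Of the 3 measured MADS-box partners of the family, Mef2c and Mef2a had their highest r with Myf6, and Srf had a negative r with all 3 members. Correlations with other genes are given as descriptions over the same 6 arrays, with no p. They are on the median-centred log2 scale unless another is named, and all genes share the scaling of each array. Mef2c, a MEF2 factor of skeletal and cardiac muscle, had r = 0.92 with Myf6, 0.63 with Myog and 0.53 with Myod1, and was highest on replicate 3 and lowest on replicate 6. Mef2a had r = 0.53 with Myf6, 0.25 with Myog and -0.015 with Myod1. Srf, the serum response factor that binds actin gene promoters, went the other way from Myod1 after median centring. Its normalized log2 intensity was lowest on replicates 2 (0.53) and 1 (0.75), where Myod1 was highest, and highest on replicate 6 (2.33), where Myod1 was lowest, and r was -0.93. In deposited units both genes were highest on replicate 1 (Srf 0.1091, Myod1 0.217), so the opposite direction is stated for the centred scale only. The Myod1 to Srf ratio ranged 39.0-fold between arrays, and the Myog to Srf ratio 7.53-fold.

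Of 32 listed muscle genes known to be regulated through MyoD-family factors, 10 were measured, all above 0 on every array and 9 above the noise bound on every array. Their r was positive for all 10 with Myf6 and Myog and for 9 with Myod1, where 101, 99 and 83 of the 161 other genes had a positive r with Myf6, Myog and Myod1. Their median r was 0.85 with Myf6, 0.78 with Myog and 0.42 with Myod1, against medians of 0.43, 0.27 and 0.13 over all 161 other genes. For Myf6, that height depended on the scaling: after quantile normalization the list's median was 0.29 and that of all genes 0.30. For Myog it was 0.60 after quantile normalization, against 0.22 for all genes. For Myod1 it was 0.17 after quantile normalization, against 0.033 for all genes, and -0.097 without replicates 1 and 6, against -0.054. The summed level of the 6 measured fibre markers was highest on replicate 1 (410.2 times the array median) and lowest on replicate 6 (151.0 times), the arrays where Myf6 was highest and lowest. All 6 markers are also among the 10 muscle genes, so this is not a separate observation. All 6 endothelial markers on the list were measured, and their summed level was lowest on replicate 1 (7.41 times) and highest on replicate 5 (14.98 times), with a median r of -0.52 with Myf6, -0.51 with Myog and -0.47 with Myod1. Of 5 fibroblast and pericyte markers, 3 were measured, with a summed level lowest on replicate 6 (4.35 times) and highest on replicate 3 (10.2 times) and a median r of -0.079, 0.16 and -0.026. Both measured satellite cell markers had a negative r with Myod1, at -0.49 for Vcam1 and -0.23 for Cd34. With Myog their r was -0.74 and 0.42, and with Myf6 -0.28 and 0.37. Vcam1 exceeded the noise bound on 5 of 6 arrays. The part of fibre, vascular and satellite cell RNA content in the members' patterns was not tested.

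Within arrays, the ratio of Myog to several of these muscle genes ranged less than Myog itself, which ranged 2.61-fold. The Myog ratio to Myh1, the type IIx myosin, ranged 1.85-fold, and to Myh2, the type IIa myosin, 1.89-fold. Its ratio to Des, the desmin gene, ranged 1.91-fold, to Dmpk, the myotonin kinase gene, 1.92-fold, to Ttn, the titin gene, 1.95-fold, to the oxygen carrier Mb 1.97-fold, and to the slow myosin Myh7 2.06-fold. The SDs of these log2 ratios were 0.34 (Mb) to 0.42 (Des). That of Myog itself was 0.56, and the median over all gene pairs above the noise bound was 0.73. Wider ranges were seen for Myh4, the type IIb myosin (2.97-fold), Capn3, the muscle calpain (2.56-fold, above the noise bound on 2 of 6 arrays), and Slc2a4, the insulin-responsive glucose transporter (3.64-fold). Myf6 had its narrowest ratio range in this list to Myh1 (1.71-fold) and Dmpk (1.81-fold). Myod1 ratios to the same 10 genes ranged 6.36-fold or more, with Dmpk at 6.36-fold and Slc2a4 at 13.5-fold.

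Of 15 cell cycle genes, 7 were measured and 5 were above 0 on all arrays. The remaining measured genes were near noise: Top2a exceeded the noise bound on 1 of the 6 arrays, and Ccna2 on 0. Cdkn1a, the p21 inhibitor through which MyoD is known to help stop division, had r = 0.81 with Myod1, 0.90 with Myf6 and 0.53 with Myog. It exceeded the noise bound on 5 of 6 arrays, and its lowest array, replicate 6, was the one at the bound. Pcna, the replication clamp, had r = 0.94 with Myf6 and 0.67 with Myod1. Cdk4, the kinase that cyclin D uses and that blocks MyoD activity in cultured cells, ran opposite, with r = -0.90 with Myf6, -0.72 with Myog and -0.38 with Myod1. Ccnd1, the cyclin D1 gene, had r = 0.60 with Myf6 and -0.11 with Myod1, and Rb1, the retinoblastoma gene, 0.0014 and -0.27. The list's median r was 0.60 with Myf6, 0.39 with Myog and -0.11 with Myod1, with members of both signs in each. Over all 161 other genes the medians were 0.43, 0.27 and 0.13. On the 4 genes above the noise bound on all arrays, the list's medians were 0.30, 0.22 and -0.19. These were lower than the 0.52, 0.33 and 0.18 of all other genes above that bound.

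Of 22 listed genes that act upstream of the family, 10 were measured and 6 were above 0 on all arrays. Their r was positive for 2 of 6 with Myf6, 3 of 6 with Myog and 1 of 6 with Myod1, against 101, 99 and 83 of all 161 other genes. The medians were -0.45, -0.26 and -0.39, against 0.43, 0.27 and 0.13 over all 161 other genes. On the 5 genes above the noise bound on all arrays the medians were -0.63, -0.68 and -0.40, and without replicates 1 and 6 the Myod1 median was -0.031. Fgfr1, an FGF receptor whose signal holds back muscle differentiation, had r = -0.92 with Myf6, -0.83 with Myog and -0.82 with Myod1, over a narrow range of 1.70-fold. In deposited units Fgfr1 (0.0474) and these 3 members were all highest on replicate 1, so the negative r values are stated for the centred scale only. Igf1, a growth factor that promotes differentiation of myoblasts, had r = -0.85 with Myog and was the gene least like it. Its highest normalized log2 intensity, 2.86, was on replicate 5, where Myog was lowest on the same scale. In deposited units Myog was lowest on replicate 6 (0.0068). Igf1 had another probe, for which r with Myog was -0.66. Igf2 had r = -0.68 with Myog and -0.84 with Myf6. Jun, an AP-1 subunit that can bind and inhibit MyoD, had r = 0.33 with Myod1, 0.58 with Myog and 0.24 with Myf6. Hgf, the ligand that activates satellite cells, exceeded noise on 2 of the 6 arrays, Fgfr4 on 1, and Fgf2 and Il6 on 0. Of the 10 listed E-protein and Id partners, none was measured.

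**Figure D4:**
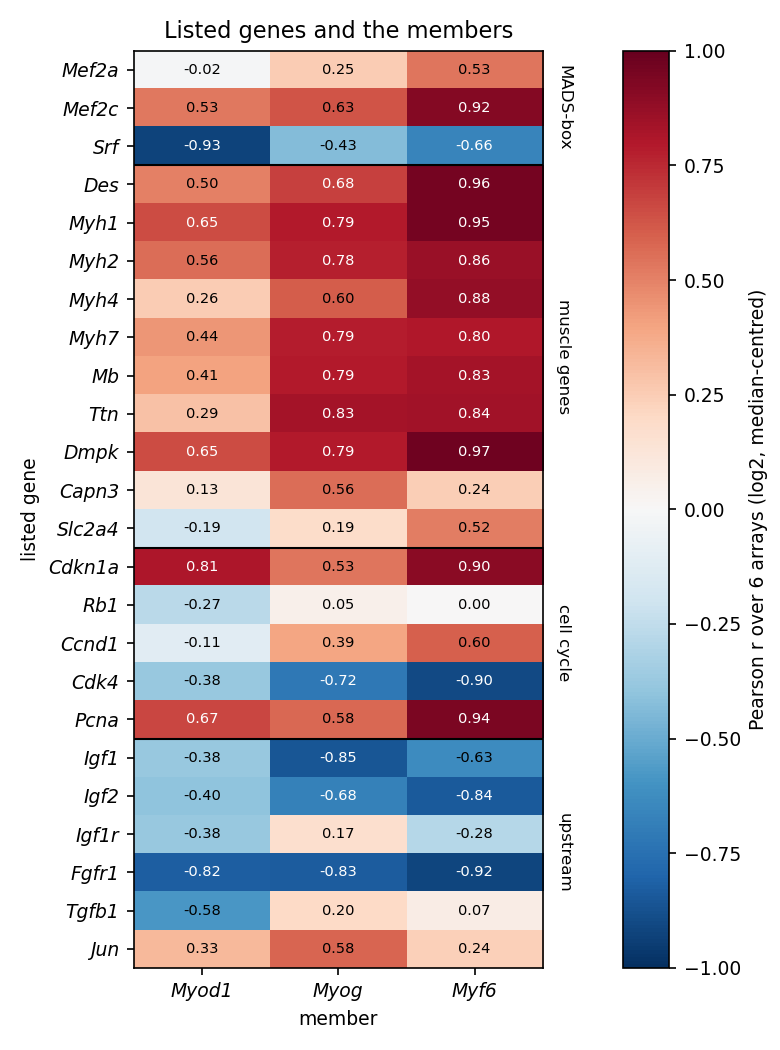
Pearson's r over the 6 arrays of each listed gene above 0 on all arrays (rows, grouped by list) with Myod1, Myog and Myf6 (columns), on the median-centred log2 scale, with the value in each cell. The muscle genes are mostly positive and highest with Myf6, Srf is -0.93 with Myod1, and Fgfr1 is negative with all 3.

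The 3 genes most like each of the 3 factors over the 6 arrays are given here. Sets of 3 out of 161 genes would seldom share a gene, so their lack of overlap is not read as a result. The measure was Pearson's r on the median-centred log2 scale among 161 genes, given as a description of 6 arrays. For Myod1 they were Hmox1, the stress-induced haem oxygenase (r = 0.93), Mmp10, a matrix protease (0.91), and Slc2a2, a glucose transporter best known from liver and pancreas (0.84). Hmox1 had normalized log2 intensities of 2.19 and 1.63 on replicates 1 and 2, of 0, 0.069 and 0 on replicates 3, 4 and 5, and of -1.14 on replicate 6. It was also the gene whose ratio to Myod1 varied least (SD of the log2 ratio 0.51), with Mmp10 next (0.59). All 3 exceeded the noise bound on all arrays, and without replicates 1 and 6 their r values with Myod1 were 0.94, 0.96 and 0.98. This is no separate check, since the genes were picked by their r on these same arrays. Among the arrays left, only replicate 2 was high for Myod1. The gene least like Myod1 was Srf.

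For Myog the most similar genes were Fgfr3, an FGF receptor (r = 0.99), Hk1, a hexokinase of glucose use (0.92), and Lamb1, a laminin chain (0.86). Of these only Hk1 exceeded the noise bound on all arrays, at 1.29 to 4.57 times the bound. The Hk1 ratio to Myog varied least of all genes, with an SD of 0.22. Fgfr3 was under the bound on replicates 1, 5 and 6, and Lamb1 was above it on 0 of 6 arrays.

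For Myf6 they were Igf2r, the receptor that clears IGF2 (r = 0.98), Acadl, the long-chain dehydrogenase of fatty acid oxidation (0.98), and Dmpk (0.97). All 3 exceeded the noise bound on all arrays. The Myf6 ratio to Acadl varied least, with an SD of 0.20. Acadl had normalized log2 intensities of 2.09, 1.37, 1.91, 1.12, 0.62 and 0.28 on replicates 1 to 6, in the same order of arrays as Myf6. The gene least like Myf6 was Igfbp1, an IGF-binding protein of liver (r = -0.98), which was above the noise bound only on replicates 4 and 6.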

How the data were processed

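Per the labels, cryosections were the source of the RNA, of which 3 micrograms per sample went on an array. The deposited table holds 1 intensity per probe and array. The array type, scanner, background method and normalization are not given in the sources used here. Values below 0 occur, and the arrays differ in total. Precision is limited by there being 6 arrays.

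Of the 223 probes, 18 without a single annotated gene were not named, and where a gene had several probes the brighter stood for it. Probes above 0 on all 6 arrays were converted to log2 with no pseudocount and centred on each array's median. For Myf5, not above 0 throughout, linear multiples of that median were used. Correlations between members were tested over all 720 pairings (two-sided, doubling the smaller tail), and checked against SciPy 1.17.1 on simulated data, with Python 3.11.15, NumPy 2.4.6 and pandas 2.3.3. The smallest p that 6 arrays allow is 0.00278, or 0.0167 after adjustment over 6 pairs. With 1 group, no conditions were compared.

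The genes named are the 4 members, the listed partners, targets and regulators, and for each member the 3 genes of highest and the 1 of lowest Pearson's r. Members and lists were chosen with earlier results of these data known. Alternatives were other scalings, the noise bound added, probes above the bound, and arrays left out.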

Additional observations from a re-analysis of the deposited data

How the results depend on the processing

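The mean log2 ratios between members stayed within 1 SD of their values under quantile normalization and with the noise bound added. Leaving out 1 array in turn gave means of 0.048 to 0.62 for Myod1 over Myog, -2.06 to -1.51 for Myod1 over Myf6 and -2.22 to -1.98 for Myog over Myf6. Leaving out 1 of 6 arrays cannot move a mean by 1 SD, so these means are given as a description. The SD of each member was larger without centring. In deposited units it was 1.23 for Myog, 2.07 for Myod1 and 1.58 for Myf6, against 0.56, 1.39 and 0.82 after centring. Scaling to 28S gave 1.06, 1.665 and 1.28. Of the relations between members, Pearson's r for Myf5 and Myf6 passed the adjusted threshold when each array was scaled to its median. It also passed when that median was taken over probes above the noise bound (r = 0.8786), which does not filter the Myf5 values. It did not pass in deposited units (r = 0.9952), after scaling to 28S ribosomal RNA (0.9694) or with the noise bound added (0.7865). With 1 array left out it was 0.85 to 0.97, and 5 arrays cannot pass, since the smallest adjusted p they allow is 0.10. Without both replicates 1 and 6, a choice made after seeing the data, r was -0.2014 for Myod1 and Myf5 and -0.01735 for Myog and Myf5, and the cause was not tested. The same choice gave a median r of -0.09697 for muscle genes with Myod1, and quantile normalization gave 0.295 for muscle genes with Myf6. No paired analysis was possible because there was 1 group. Closeness to the noise bound limits every value of Myf5.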
